A study of Mus musculus with 2 samples.

Results

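The 36 genes described here encode the proteins that move calcium and other ions in heart muscle cells. They were taken by symbol from a fixed list and all 36 were found by Ensembl identifier among the 22401 features of both deposited matrices of UMIs, the molecule tags counted in droplet sequencing. They were followed through the cardiomyocyte subsets of E11.5 mouse hearts and between 2 genotypes, with 1 single-cell library each. The control embryos had the genotype Hand2fx/+R26RmTmG/wt, with 1 floxed Hand2 allele and no Cre. The H2CKO embryos had the genotype Nfatc1Cre/wtHand2fx/fxR26RmTmG/wt, in which Cre made from the Nfatc1 locus removes Hand2, a transcription factor gene, in the endocardium, the inner lining of the heart. Both genotypes carried at least 1 floxed Hand2 allele and 1 copy of the mTmG reporter, so neither is wild type, and Cre itself is present only in H2CKO. Nfatc1-Cre is known as an endocardial driver, not as a driver in cardiomyocytes. Dissected embryos waited about 3 hours on ice before the cardiac tissue was dissociated. The number and sex of the embryos behind each library were not given in the sources used here.

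In a beating cardiomyocyte, L-type calcium channels open with each action potential, and the calcium that enters opens ryanodine receptors on the sarcoplasmic reticulum, the internal calcium store. The pump SERCA2, held in check by phospholamban and sarcolipin, refills the store, and the sodium-calcium exchanger of the surface membrane carries calcium out. Potassium channels end the action potential, while HCN channels and T-type calcium channels serve pacemaker activity. At this stage the ventricles, atria, atrioventricular canal and outflow tract conduct and contract differently, and the canal and the early outflow tract are known for slow conduction.

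The 2 matrices held 14114 control and 13885 H2CKO barcodes with 195825720 and 201477256 UMIs, and 57 barcode sequences occurred in both. After filtering, 8793 control and 11534 H2CKO cells were kept. Cardiomyocyte-like cells numbered 2791 and 4067. Their median cell held 20562 and 17412 UMIs, with mitochondrial shares of 4.22% and 7.01%. In endothelial-like cells Hand2 was at 173 CPM (the UMIs of a gene scaled to the total UMIs of the class) in the control and 13.1 CPM in H2CKO, while cardiomyocyte-like cells had 77.3 and 73.2 CPM. Transcripts of the Cre-dependent GFP reporter were at 13.2 and 977 CPM in endothelial-like and at 10.1 and 9.57 CPM in cardiomyocyte-like cells. Transcripts of the reporter's Tomato, which Cre removes, were at 18.2 and 3.29 CPM in endothelial-like cells and were also lower in H2CKO in cardiomyocyte-like cells, at 16.0 CPM (14.99 to 17.04) and 4.46 CPM (4.02 to 4.95). A further cluster of 253 control and 257 H2CKO cells fitted the endothelial markers best but could not be named, and it is not part of these values. With 1 library per genotype no test between genotypes is possible, and every difference below is between these libraries. Intervals are exact 95% intervals for counts (Poisson), for ratios of counts (conditional) or for shares (Clopper-Pearson), and cover counting error only.

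Cardiomyocyte-like cells were divided without use of the 36 genes, and the subsets were named from other markers. The trabecular-like cells (408 control, 929 H2CKO) had Nppa, Cited1 and Gja5 among their leading genes. The outflow-tract-like cells (239 and 306) led with Tnc, Bmp4, Sema3c and Isl1, and the atrioventricular-canal-like cells (90 and 151) with Bmp2, Tbx3 and Rspo3. The atrial-like cells led with Nr2f1, Nr2f2 and Stard10, and they were almost all from the control, at 108 of 2791 cardiomyocyte-like cells (3.87%, 3.18 to 4.65) against 3 of 4067 (0.0738%, 0.0152 to 0.215). A difference between the genotypes and one between the 2 preparations cannot be told apart here, and atrial values below are from the control only. The Top2a-high cluster of dividing cells (723 and 1404) kept the name of a leading gene, and a further cluster (332 and 703) is not described by itself, since neither could be named from its markers. These and the trabecular-like cells were the clusters in which both Myl2, a ventricular myosin light chain, and Irx4, a ventricular transcription factor, were above their level in the other cardiomyocyte-like cells; the shallow cluster had more of Myl2 alone and the canal-like cells more of Irx4 alone. Together the 3 are called the Myl2-high clusters (1463 and 3036 cells) and serve as the reference. A shallow cluster (693 and 276 cells, with a median of 1720 and 2930 UMIs per cell), a globin-containing cluster (103 and 248) and a Upk3b-high cluster (95 and 47) also belonged to the cardiomyocyte-like class. No compact-like cluster could be named.

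Of the 36 genes, 21 reached 20 CPM in cardiomyocyte-like cells of both libraries, and 17 of these were at least 2-fold above each of 5 other classes in both (endothelial-, epicardial-, mesenchymal-, white blood cell- and erythroid-like). Of all 4771 genes at that level, 6.52% did the same. Without doublet removal, which took the epicardial-like class from 685 to 1139 control and from 222 to 486 H2CKO cells, 2 of the genes met this mark instead of 17. Among the 17 were the release channel Ryr2, the SERCA2 gene Atp2a2, its inhibitor Pln, the exchanger Slc8a1 and the L-type channel pore Cacna1c. They also included the store proteins Casq1, Trdn, Hrc and Srl, the junction protein Jph2, which ties the store to the surface membrane, and the potassium channel genes Kcne1 and Kcnh2. Erythroid-like cells give a measure of free RNA in the droplets. They held 3.65 CPM Ryr2 in the control and 1.95 CPM in H2CKO, against 283 and 194 CPM in cardiomyocyte-like cells, and 13 cardiomyocyte marker genes stood there at a median of 2.06% and 2.10% of their cardiomyocyte level and at most at 2.62% and 2.72%. Not all of the 17 lay within that range: Popdc2 was at 4.79% and 4.44% of its cardiomyocyte level in erythroid-like cells, and in the control Srl (3.20%), Atp2a2 (3.13%), Jph2 (2.81%) and Kcnh2 (2.79%) were also above it.

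The other 4 of the 21 were shared with other cells of the heart. Asph, which encodes aspartyl hydroxylase and, from the same gene, the store protein junctin, was at 86.9 and 59.0 CPM in cardiomyocyte-like cells of control and H2CKO and at 93.1 and 31.6 CPM in epicardial-like cells. Cacna2d1, an auxiliary subunit of L-type channels, was at 41.7 and 28.6 CPM in cardiomyocyte-like and at 30.7 and 18.7 CPM in epicardial-like cells. Ank2, the membrane scaffold ankyrin-B, was at 29.7 and 23.8 CPM in cardiomyocyte-like and at 20.8 and 15.8 CPM in mesenchymal-like cells. S100a1, a calcium-binding regulator of the release channel and the pump, was at 83.2 and 107.5 CPM in cardiomyocyte-like cells and at 39.2 and 33.9 CPM in white blood cell-like cells, so it fell just short of the 2-fold mark in the control. Kcnj2, the inward rectifier, lay outside the 21: it was at 27.8 CPM (21.0 to 36.2) and 11.7 CPM (9.23 to 14.7) in endothelial-like cells and at 1.05 and 0.738 CPM in cardiomyocyte-like cells. In epicardial-like cells of H2CKO, Pln was at 93.7 CPM against 19.7 CPM in the control and Kcne1 at 27.6 against 3.40 CPM. The 13 cardiomyocyte markers moved with them, at a median of 12.4% of their cardiomyocyte level in H2CKO epicardial-like cells and 2.85% in the control, and the part of cardiomyocyte RNA in these epicardial values was not tested.

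The remaining 15 genes were low. Kcnip2, Hcn2, Scn4b, Kcnd3 and Cacna1g, which encode subunits of the adult transient outward, pacemaker, sodium and T-type currents, were each below 1 CPM over the cardiomyocyte-like cells of both libraries. Kcnip2 had 6 UMIs in 2791 control cells and 16 in 4067 H2CKO cells. Kcnq1, whose channel is the partner of the subunit made from Kcne1, was at 4.21 and 5.99 CPM. Casq2, Kcnj5, Fkbp1b, Kcnj3 and Sln were also among the 15 and are described by subset. Cacna1d, an L-type pore of pacemaker cells, was at 12.5 and 6.11 CPM, with 35.5 and 19.6 CPM in the atrioventricular-canal-like and 20.8 and 10.3 CPM in the outflow-tract-like cells. Kcnd2, a transient outward channel, was at 4.85 and 7.61 CPM. Cacna1g reached 5.63 and 6.53 CPM in the canal-like cells. The pacemaker channel gene Hcn4 was at 12.0 and 7.98 CPM over all cardiomyocyte-like cells, 20.3 and 12.2 CPM in the atrioventricular-canal-like and 18.0 and 11.52 CPM in the trabecular-like cells, and 4.73 and 2.09 CPM in the outflow-tract-like cells. The canal-like and trabecular-like values overlapped within counting error in each library.

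**Figure D1:**
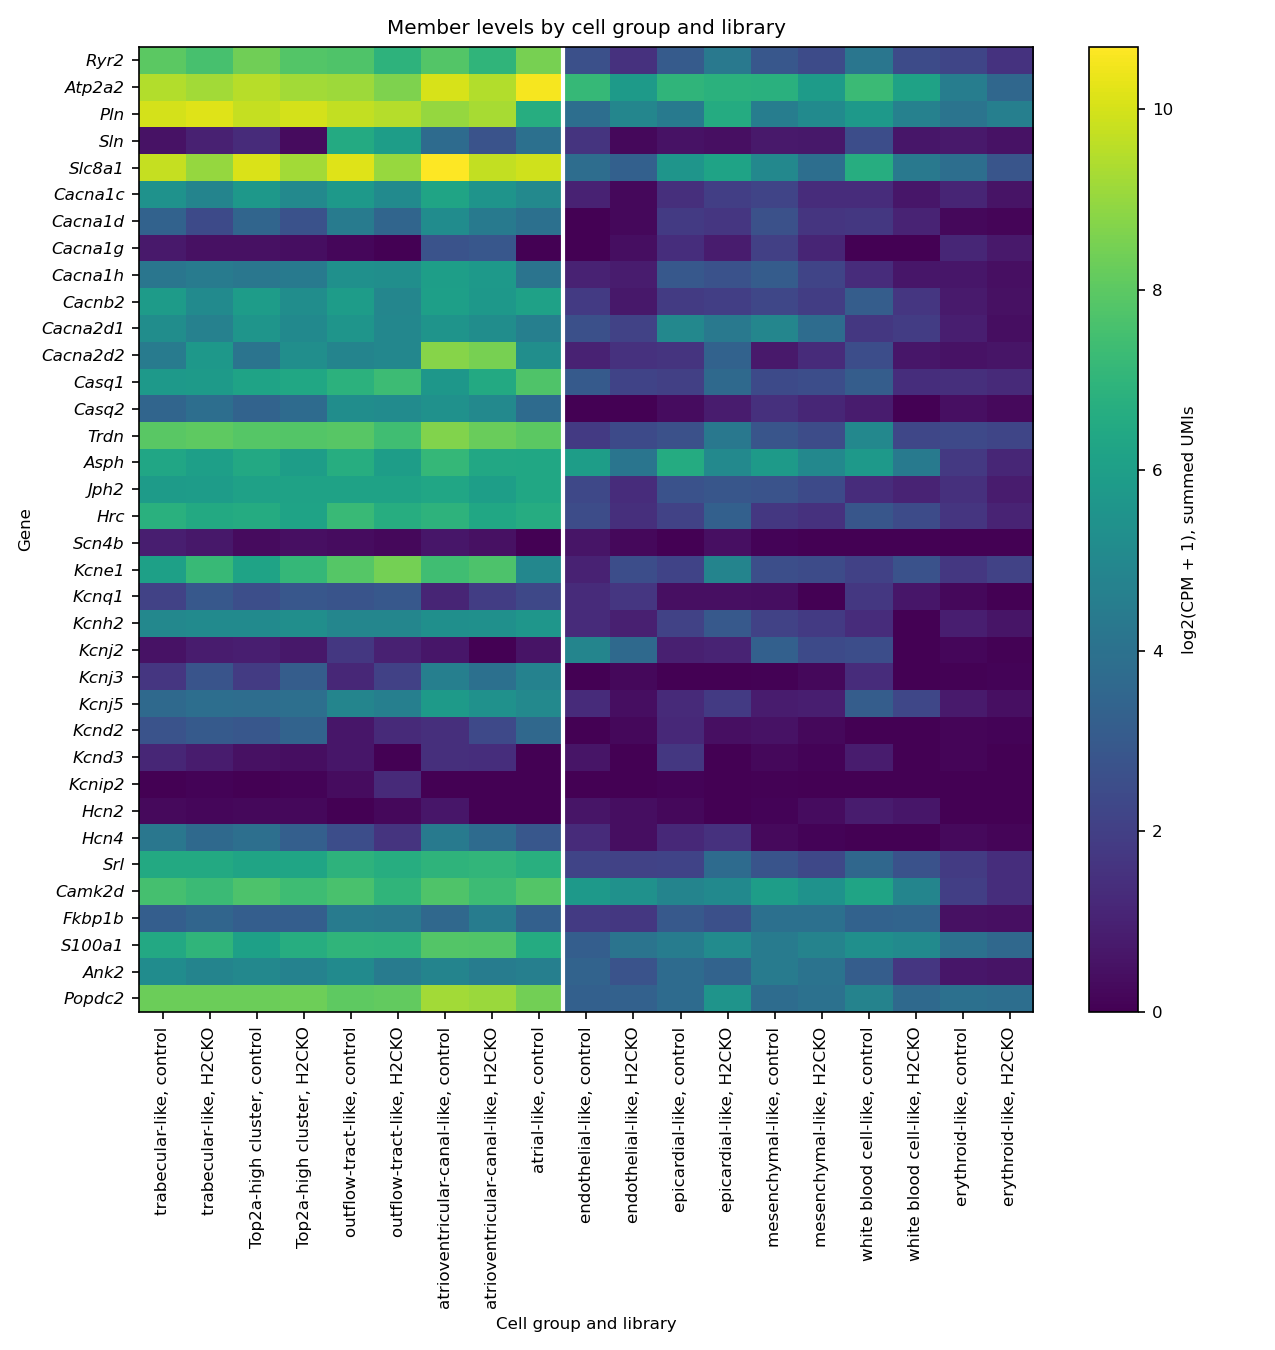
Levels of the 36 genes (rows, in the order of the list) in 5 cardiomyocyte subsets and 5 other cell classes (columns, by library), as log2 of CPM plus 1 from UMIs summed over the cells of a column. The white line divides cardiomyocyte subsets from other classes; most rows are brighter to its left, Asph and Camk2d keep colour to its right, and Cacna2d2 is brightest in the atrioventricular-canal-like columns. The 3 H2CKO atrial-like cells are left out.

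Between the cardiomyocyte subsets, 2 kinds of pattern appeared among these genes. Sln, Cacna2d2, Kcnj3 and Pln had levels that set 1 or more subsets far from the rest, while others differed less. Jph2, for example, stayed between 56.7 CPM and 81.4 CPM over the 5 control subsets drawn here, and Camk2d between 187 and 224 CPM. In H2CKO, Camk2d was at 126 CPM in outflow-tract-like cells and 159 CPM in the Myl2-high clusters. Genes were compared where they reached at least 20 CPM and 20 UMIs in the higher group, and a gene was counted where the log2 ratio of CPM plus 5 was at least 1 in size, or 2-fold, in the same direction in both libraries. A gene under 20 CPM in 1 group could thus enter only as higher in the other. This held for the listed genes and for all genes alike.

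Upstream sequence is shown for 3 genes whose subset pattern is described next, Casq2 and Kcnj5, which were high in the atrioventricular-canal-like cells of both libraries, and Pln, which was low in atrial-like cells. The bases lie directly before the transcription start, are given 5′ to 3′ on the gene's own strand from RefSeq windows (GRCm38.p6), and stop where an annotated exon begins. They cover chr3:102086165-102086414 (plus strand, 250 bases) for Casq2, chr9:32344351-32344594 (minus strand, 244 bases) for Kcnj5 and chr10:53337436-53337666 (plus strand, 231 bases) for Pln. Capitals mark matches on either strand to 3 motifs of cardiac transcription factors, the T-box half-site GGTGTG, the GATA motif AGATAA and the NKX2-5 motif TNAAGTG.
Casq2: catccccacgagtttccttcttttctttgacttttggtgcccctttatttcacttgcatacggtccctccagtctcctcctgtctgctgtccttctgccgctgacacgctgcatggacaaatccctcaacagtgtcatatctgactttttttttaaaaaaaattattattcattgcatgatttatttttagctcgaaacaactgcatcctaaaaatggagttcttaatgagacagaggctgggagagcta
Kcnj5: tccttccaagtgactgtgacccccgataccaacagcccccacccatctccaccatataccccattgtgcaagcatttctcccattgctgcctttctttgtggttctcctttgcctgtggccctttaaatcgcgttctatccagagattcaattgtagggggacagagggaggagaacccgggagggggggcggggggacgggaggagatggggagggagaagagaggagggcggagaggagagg
Pln: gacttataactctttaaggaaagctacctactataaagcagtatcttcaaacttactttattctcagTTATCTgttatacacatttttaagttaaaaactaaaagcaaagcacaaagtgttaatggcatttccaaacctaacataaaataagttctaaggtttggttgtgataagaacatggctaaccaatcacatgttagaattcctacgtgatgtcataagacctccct
The Pln sequence holds 1 GATA match, and the other 2 hold none of the 3 motifs in this window. Windows of 250 bases were found for 27 of the 36 genes. A T-box match stood before 4 of the 27 (14.8%), among them Kcnj3, a GATA match before 3 (11.1%: Pln, Popdc2 and Slc8a1) and an NKX2-5 match before 3 (11.1%), counting a gene once over all its windows. Of 32851 mouse windows, each counted singly, 16.3%, 9.99% and 10.1% held the 3 motifs. The 27 genes had 35 windows, so their shares and these are not on the same measure. A match is a run of letters and not a measured binding site.

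In the outflow-tract-like cells, 3 of the 24 genes compared were higher than in the Myl2-high clusters in both libraries and none was lower. Over all 5152 genes compared, 2.27% were higher and 0.641% lower. Sln (chr9:53850164-53854560, GRCm38), which encodes sarcolipin, an inhibitor of the SERCA pump, was at 92.4 CPM (85.4 to 99.8) in control and 60.7 CPM (54.8 to 67.2) in H2CKO outflow-tract-like cells. In the Myl2-high clusters it was at 1.18 and 0.497 CPM, near the 0.648 and 0.425 CPM of erythroid-like cells. The log2 ratios were 3.98 and 3.58, and Sln had a UMI in 39.7% and 32.0% of outflow-tract-like cells against 1.18% and 0.564% of erythroid-like cells, which were somewhat shallower (a median of 18308 and 13220 UMIs per cell against 26311 and 18087). Outflow-tract-like cells also held more of the gene than any other named subset in both libraries, atrial-like cells of H2CKO aside.

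Kcne1, the auxiliary subunit of the slow delayed-rectifier potassium channel, was the second gene, at 235 CPM (224 to 247) and 352.5 CPM (338 to 368) in outflow-tract-like cells against 76.2 and 142 CPM in the Myl2-high clusters. Its log2 ratios were 1.57 and 1.28. Casq2, the cardiac calsequestrin that buffers calcium in the store, was at 36.9 and 34.2 CPM against 9.31 and 11.6 CPM, with log2 ratios of 1.55 and 1.24. The next in size were the T-type channel Cacna1h (0.98 and 0.76), Kcnj5 (0.92 and 0.65) and the skeletal calsequestrin Casq1 (0.64 and 0.98), none past 2-fold in both libraries. The log2 ratios were −0.56 and −0.80 for Ryr2, −0.40 and −0.57 for Atp2a2, −0.12 and −0.57 for Pln, 0.20 and −0.06 for Slc8a1 and 0.17 and 0.15 for Cacna1c. Among other genes of the store, Srl was at 0.63 and 0.35, Hrc at 0.52 and 0.33 and Trdn at 0.01 and −0.44. Over the 24 genes the median log2 ratio was 0.18 and 0.02, beside 0.00033 and −0.0040 for all genes compared. In the control, Sln, Casq2, Cacna1h, Cacna2d2 and Kcnj5 passed 20 CPM only in the outflow-tract-like cells of this pair. Neither the count nor the median therefore describes the list as a whole. All 11 mesenchymal markers were above 0 in these cells, summing to 127 and 39.5 CPM, and 7 and 6 of 7 smooth muscle markers were, summing to 5574 and 5343 CPM. Their part in these values was not tested.

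The atrioventricular-canal-like cells differed in more of the genes, with 5 of 23 higher and none lower in both libraries (background 4.98% higher and 1.04% lower of 5479 genes). Cacna2d2 (chr9:107399612-107529343, GRCm38), which encodes the α2δ-2 auxiliary subunit of voltage-gated calcium channels, stood apart. It was at 433 CPM (403 to 465) and 361 CPM (338 to 385) in these cells, 16.1 and 38.3 CPM in the Myl2-high clusters, and 27.7 and 30.0 CPM in outflow-tract-like cells. Its log2 ratios over the Myl2-high clusters were 4.38 and 3.08, with ratios of CPM of 24.2 to 29.9 and 8.72 to 10.2 by counting error. A UMI of Cacna2d2 was found in 96.7% and 94.0% of the canal-like cells (a median of 16158 and 12463 UMIs per cell) and in 0.809% and 0.725% of the erythroid-like cells, whose medians are given above. Nearly every cell of the subset therefore had the transcript in both libraries.

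The other 4 were Cacna1h, S100a1, Casq2 and Kcnj5. Cacna1h, the pore of a T-type channel, was at 61.9 and 53.8 CPM against 17.9 and 20.5 CPM (log2 1.55 and 1.20). S100a1 was at 223 and 219.8 CPM against 70.3 and 106 CPM (1.60 and 1.02). Casq2 was at 41.7 and 31.8 CPM against 9.31 and 11.6 CPM (1.71 and 1.14). Kcnj5, a subunit of the acetylcholine-activated potassium channel, was at 55.2 and 41.6 CPM against 12.7 and 13.2 CPM (1.77 and 1.36). Its partner subunit Kcnj3 was at 23.6 and 14.3 CPM against 2.41 and 7.43 CPM, and reached 20 CPM in the control only. Pln had the largest difference in the other direction, at 506 and 619 CPM against 919.7 and 1069 CPM (−0.86 and −0.78), while Atp2a2 was at 1045 and 706 CPM against 733 and 589 CPM (0.51 and 0.26). Slc8a1 was at 1649 and 829.9 CPM against 996 and 545 CPM (0.72 and 0.60), Cacna1c at 0.58 and 0.54 on the log2 scale and Ryr2 at −0.48 and −0.75. The median log2 ratio of the 23 genes was 0.58 and 0.47, beside 0.10 and 0.12 for all genes. It includes Cacna2d2, Cacna1h, Casq2 and Kcnj5, which in the control passed 20 CPM only in the canal-like cells of this pair. It therefore does not describe the list as a whole. All 11 mesenchymal markers were above 0 in the canal-like cells, summing to 127 and 50.6 CPM, and 10 and 11 of 12 endothelial markers were, summing to 73.7 and 47.7 CPM. Their part in these values was not tested. At a lower clustering resolution Cacna1h and S100a1 were not counted, and with cells thinned to 5000 UMIs Kcnj5 and S100a1 were not, which left 3 genes in each case. At the lower resolution the canal-like cluster held 188 control and 151 H2CKO cells, against 90 and 151 above. Nr2f1 and Nr2f2, leading genes of the atrial-like cells, were then among its leading genes, and no atrial-like cluster was separate.

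Set directly against each other, the canal-like and outflow-tract-like cells differed in both libraries in 1 gene each way (background 2.11% and 0.717% of 5440). Cacna2d2 was higher in the canal-like cells, with log2 ratios of 3.75 and 3.38. Sln was lower there, at 12.4 and 5.71 CPM, with −2.49 and −2.62. Casq2 lay at 0.16 and −0.09, so its level was alike to within counting error in both subsets, where the ratio of CPM was 0.861 to 1.47 and 0.708 to 1.21. Popdc2, a cyclic AMP-binding membrane protein of the conduction system, was at 583 and 539.5 CPM in canal-like and 259 and 281 CPM in outflow-tract-like cells (1.15 and 0.93).

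Trabecular-like cells against the other Myl2-high cells gave none of 20 genes past 2-fold in either direction (background 0.0402% higher and 2.01% lower), a count near the background. The largest difference was Casq1, at 52.3 and 55.8 CPM against 78.2 and 86.7 CPM (−0.54 and −0.59). Cacna2d2 lay at 0.41 and 0.55, S100a1 at 0.35 and 0.34, Cacna2d1 at −0.28 and −0.27, Srl at 0.25 and 0.25 and Ryr2 at −0.37 and −0.22.

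**Figure D2:**
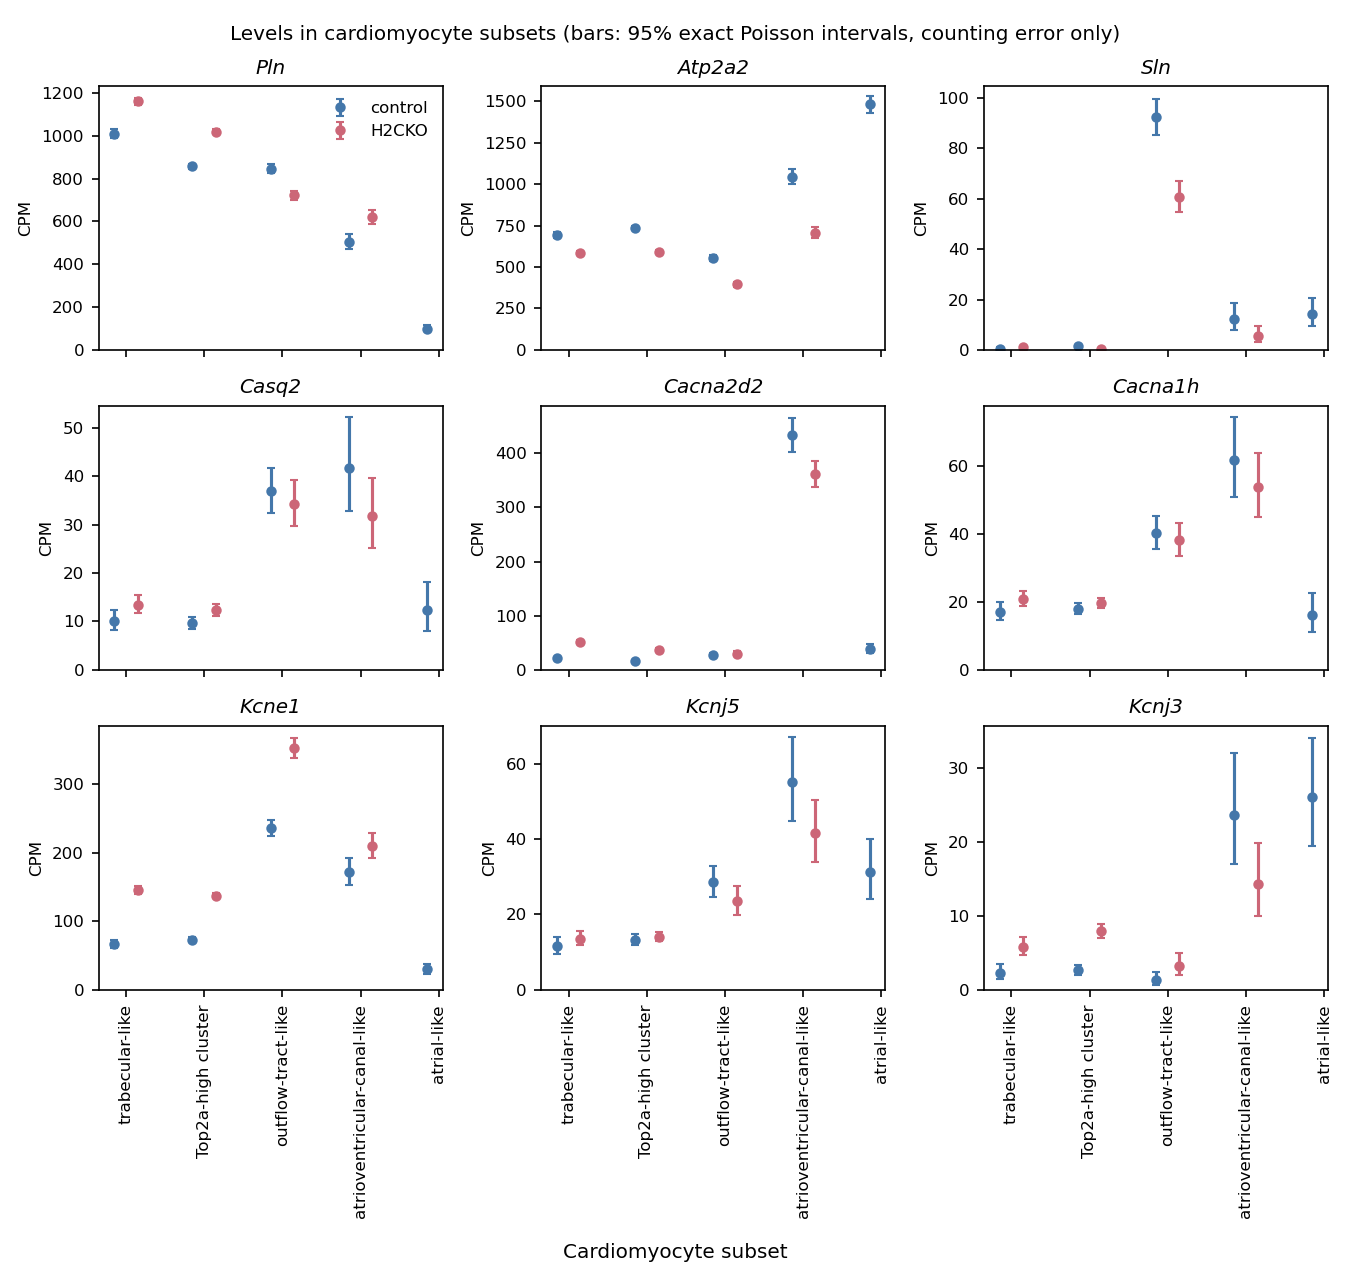
Levels of 9 genes in CPM (vertical axes, from 0) in 5 cardiomyocyte subsets (horizontal axis), with control in blue and H2CKO in red and bars for 95% exact Poisson intervals, which cover counting error only. Sln is high in outflow-tract-like cells (92.4 and 60.7 CPM), Cacna2d2 in atrioventricular-canal-like cells (433 and 361 CPM), and Pln is lowest in control atrial-like cells (99.5 CPM); the 3 H2CKO atrial-like cells are not drawn.

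In the control, 108 atrial-like cells had 5 of 22 genes higher and 2 lower than 1463 Myl2-high cells (background 2.63% higher and 2.07% lower of 5739 genes). Of the higher genes, Kcnj3, Kcnj5 and Cacna2d2 were under 20 CPM in the Myl2-high cells and were compared only through their atrial-like level. Pln, the SERCA inhibitor, was at 99.5 CPM (86.3 to 114) against 919.7 CPM, a log2 ratio of −3.14. Its target Atp2a2 was at 1481 against 733 CPM (1.01). Atrial-like cells thus had the highest Atp2a2 and the lowest Pln of these 5 control subsets. Sln, the other SERCA inhibitor of the list, was at 14.2 CPM (9.52 to 20.4), with 29 UMIs, above the 1.18 CPM of Myl2-high cells and below the 92.4 CPM of outflow-tract-like cells.

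Kcnj3, the main subunit of the acetylcholine-activated potassium channel with Kcnj5, was at 25.99 CPM (19.5 to 34.0) against 2.41 CPM (log2 2.06), and Kcnj5 was at 31.4 against 12.7 CPM (1.04). Kcnj3 was at a like level in control canal-like cells, at 23.6 CPM (17.0 to 32.0). Casq1 was at 213 against 72.3 CPM (1.49), while Casq2 was at 12.3 against 9.31 CPM. Cacna2d2 was at 38.2 against 16.1 CPM (1.03), and Kcne1 was lower, at 29.4 against 76.2 CPM (−1.24). Ryr2, Slc8a1 and Cacna1c lay at 0.19, −0.02 and −0.54, and Hcn4 was at 6.38 CPM. With cells thinned to 5000 UMIs Kcnj3, Kcnj5 and Kcne1 were no longer counted and Cacna2d1 was added as lower, and with the 36 genes kept among those used for clustering, or with the stricter cell filter, Cacna2d2 was not. The 3 H2CKO cells of this cluster held 28 UMIs of Pln, 78 of Atp2a2 and 11 of Sln, too few cells for a level.

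One cluster outside the cardiomyocyte-like class led with Crabp1 and scored highest for smooth muscle markers, yet its cardiomyocyte markers stood at a median of 97.1% and 78.2% of the cardiomyocyte-like level (127 control and 184 H2CKO cells). It is described by its leading gene. Its mesenchymal markers summed to 1066 and 828 CPM, and the part of a mixture of cells in its values was not tested. Against the Myl2-high clusters, Sln and Fkbp1b were higher in both libraries and Ryr2 and Trdn lower (background 6.21% and 3.48%). Sln was at 55.5 and 55.2 CPM, with log2 ratios of 3.29 and 3.45. Fkbp1b, the calstabin that binds the ryanodine receptor, was at 40.0 and 40.5 CPM against 8.03 and 8.82 CPM. Ryr2 was at 153 and 49.1 CPM against 315 and 214 CPM, and triadin, its anchor, encoded by Trdn, at 106 and 64.4 CPM against 236 and 232 CPM.

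Between the genotypes, none of the 21 genes compared in cardiomyocyte-like cells was past 2-fold in either direction, where 0.163% of all 5525 genes were higher in H2CKO and 0.507% lower. The median log2 ratio of H2CKO over control was −0.10 for the 21 genes and −0.16 for all genes, and 10 of the 21 lay below the median gene. Slc8a1 (chr17:81373105-81738377, GRCm38), the sodium-calcium exchanger, had the lowest ratio. Its level was 988 CPM (979.8 to 996) in control cells and 537 CPM (532 to 542) in cells of H2CKO, a ratio of 0.543 (0.537 to 0.550) and a log2 ratio of −0.87. The L-type channel subunits Cacnb2, at 55.5 and 33.8 CPM (−0.64), and Cacna1c, at 46.5 and 28.9 CPM (−0.61), were next. Ryr2 was at 283 and 194 CPM (−0.53), Asph at 86.9 and 59.0 CPM (−0.52), the channel subunit Cacna2d1 at −0.48 and Atp2a2 at 711 and 557 CPM (−0.35).

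Kcne1 (chr16:92345982-92359468, GRCm38) was the highest of the 21, at 96.6 and 158 CPM (0.68), and Cacna2d2 came next at 31.8 and 47.4 CPM (0.51), followed by S100a1 at 83.2 and 107.5 CPM (0.35). Pln was at 849.6 and 992 CPM (0.22), a sign that turned to −0.17 where only cells with at most 5% mitochondrial UMIs and at least 1500 genes were kept. Sln, at 13.5 and 6.23 CPM, and Hcn4 were under the level for comparison. The ratios kept their sign in all 10 alternative settings for 9 of the 21 genes. These were Slc8a1, Cacnb2, Cacna1c, Asph, Atp2a2 and Hrc, the histidine-rich calcium-binding protein of the store, with lower values in H2CKO, and Kcne1, Cacna2d2 and S100a1 with higher ones. Without the atrial-like, shallow, globin-containing and Upk3b-high clusters the count past 2-fold was again 0 (background 0.214% higher and 0.588% lower), and Slc8a1 lay at −0.91.

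The ratios moved with gene span, the distance from the first to the last annotated base. Over 5524 genes, Spearman's rho between the log2 ratio and the span was −0.49, a description across genes that share the same 2 libraries. The 10 tested members of at least 100000 bases had a median log2 ratio of −0.50 beside −0.37 for all 695 genes of that span, and the 4 of under 10000 bases had 0.13 beside 0.07 for 1410 genes. Between these, the 2 members of 10000 to 30000 bases had a median of 0.35 beside −0.10 for 1769 genes, and the 5 of 30000 to 100000 bases had −0.03 beside −0.33 for 1650 genes. With the trend on span taken out, the median of the 21 members was 0.14. The whole fitted curve was subtracted, so 0 on that scale is the value fitted for a gene's span. It is not an equal level in the 2 libraries. On that scale Ryr2, which spans 553844 bases, went from −0.53 to 0.02, Cacna1c (609179 bases) from −0.61 to −0.05 and Cacnb2 (384821 bases) from −0.64 to −0.14. Slc8a1, at 365273 bases, kept −0.38. Cacna2d2, at 129732 bases, went from 0.51 to 0.87 and Kcne1, at 13487 bases, from 0.68 to 0.78. Mitochondrial share and depth also differed between the libraries, as given above. So did markers of other cells within the cardiomyocyte-like class: from control to H2CKO the 11 erythroid markers summed to 15278 and 25027 CPM, the 12 white blood cell markers to 7.79 and 45.5 CPM, the 11 mesenchymal markers to 68.1 and 22.6 CPM and the 7 smooth muscle markers to 4330 and 2945 CPM. The part of these differences in the ratios was not tested.

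**Figure D3:**
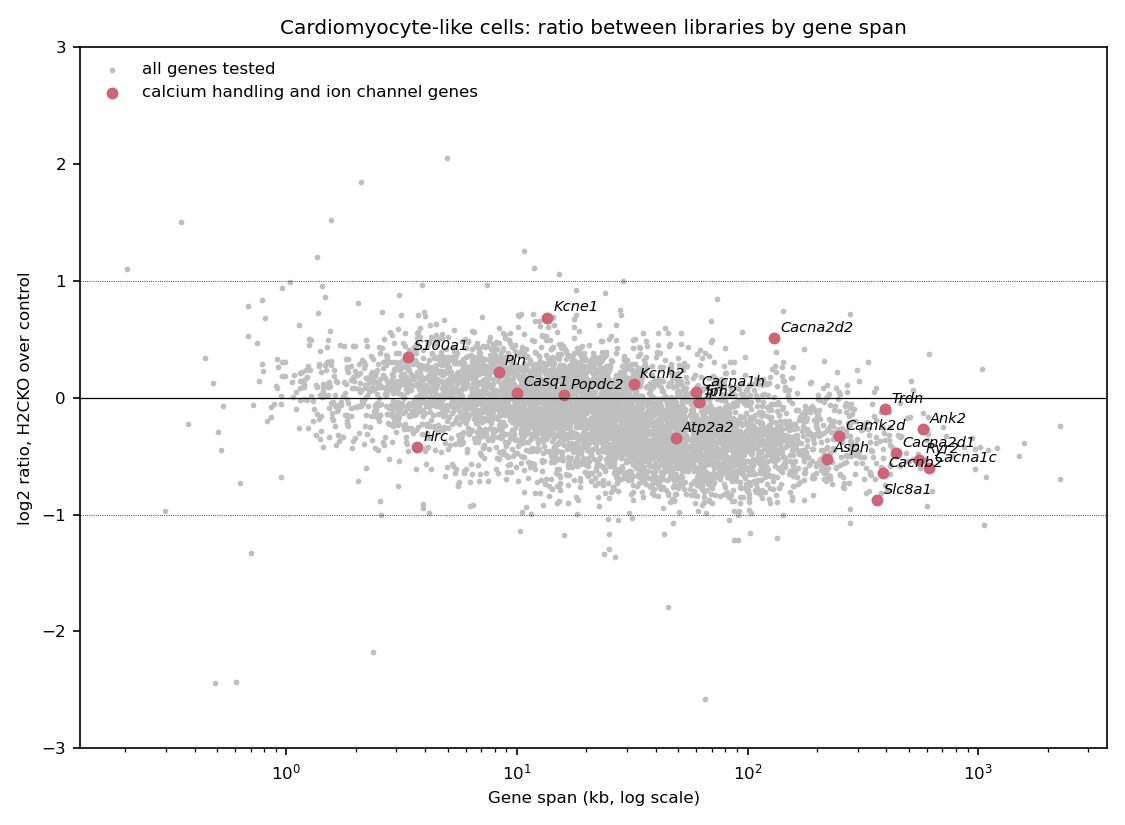
Log2 ratio of H2CKO over control in cardiomyocyte-like cells (vertical axis) against gene span in kb (horizontal axis, log scale) for 5524 genes in grey and 21 calcium handling and ion channel genes in red, with dotted lines at 2-fold. The grey cloud falls with span, the long genes Ryr2, Cacna1c, Cacnb2 and Slc8a1 lie at its right between −0.53 and −0.87, and Kcne1 (0.68) and Cacna2d2 (0.51) lie above their neighbours; 1 gene lies beyond the range drawn.

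Within the 4 subsets compared (trabecular-like, Top2a-high, outflow-tract-like and canal-like), 4 gene-and-subset pairs passed 2-fold, all of them from Cacna2d2, Kcne1 and Slc8a1. In trabecular-like cells 2 of 21 genes were higher in H2CKO (background 0.409%) and none was lower (0.613%). Cacna2d2 was at 21.0 CPM (18.2 to 24.2) and 51.6 CPM (48.1 to 55.3), a ratio of 2.45 (2.10 to 2.88), and Kcne1 was at 66.4 and 145 CPM, a ratio of 2.19 (2.002 to 2.40). In the Top2a-high cluster 1 gene, Cacna2d2, was higher (background 0.319%) and none was lower (0.62%), at 16.1 and 37.4 CPM (log2 1.005), with Kcne1 at 73.0 and 137 CPM (0.86). In outflow-tract-like cells Slc8a1 was the only gene past 2-fold (background 1.55% lower and 0.138% higher), at 1145 and 522 CPM (−1.12), with Cacnb2 at 58.7 and 29.2 CPM (−0.89), Ryr2 at 213 and 120.5 CPM (−0.80) and Sln at 92.4 and 60.7 CPM (−0.57).

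None of 27 genes was past 2-fold in atrioventricular-canal-like cells (background 0.375% higher and 1.76% lower). Slc8a1 came closest, at 1649 and 829.9 CPM (−0.99), followed by Ryr2 at 224 and 125 CPM (−0.82), and Casq1 was at 50.1 and 88.5 CPM (0.76). Cacna2d2, higher in H2CKO in the trabecular-like and Top2a-high cells, was at 433 and 361 CPM here (−0.26). Pln lay at 0.29 in these cells and at −0.23 in the outflow-tract-like cells. Centred on the median gene of each subset, Slc8a1 was no longer past 2-fold in the outflow-tract-like cells (−0.97), while Kcne1 joined Cacna2d2 in the Top2a-high cluster (1.03). Erythroid markers, all 11 above 0, summed to 4615 and 13340 CPM in canal-like cells of control and H2CKO, against 3342 to 4440 and 4262 to 5376 CPM in the other 3 subsets. White blood cell markers summed to more in H2CKO in all 4 subsets, at 13.9 and 70.3 CPM in trabecular-like, 7.64 and 46.5 CPM in Top2a-high, 1.58 and 8.68 CPM in outflow-tract-like and 16.3 and 106 CPM in canal-like cells. Smooth muscle markers summed to 3492 and 2406 CPM in trabecular-like and 4300 and 2774 CPM in Top2a-high cells, the subsets with Cacna2d2 past 2-fold. Mesenchymal markers summed to less in H2CKO in all 4 subsets. They were at 25.4 and 14.4 CPM in trabecular-like and 32.9 and 11.9 CPM in Top2a-high cells. In outflow-tract-like cells they were at 127 and 39.5 CPM, and in canal-like cells at 127 and 50.6 CPM. The part of these markers in the ratios was not tested.

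In the Crabp1-high cluster 4 of 24 genes were lower (background 5.85%) and none was higher (0.794%): Ryr2 (−1.55), Slc8a1 (−1.36), Cacnb2 (−1.14) and Atp2a2 (−1.04). In the same cluster the 13 cardiomyocyte markers summed to 70313 CPM in control and 58361 CPM in H2CKO, and the 11 erythroid markers to 5237 and 19999 CPM. Their part in these ratios was not tested.

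Over the 4 subsets compared above, 20 genes were compared in every subset. Of these, 10 were lower in H2CKO in all 4 (Ryr2, Atp2a2, Slc8a1, Cacna1c, Cacnb2, Cacna2d1, Asph, Hrc, Camk2d and Ank2), where 49% of 4957 genes were, and 3 were higher in all 4 (Casq1, Kcne1 and Kcnh2), where 21.6% were. Set against the median gene of each subset, the same 10 lay below it in all 4 (background 34.3%), and 5 lay above it in all 4 (background 36.9%), Popdc2 and S100a1 beside the 3 named. These backgrounds are not matched for span, and the 10 lower genes all span over 100000 bases apart from Atp2a2 and Hrc. In cardiomyocyte-like cells as a whole, 4 of the 10 were above the value fitted for their span, Ryr2 (0.02), Cacna2d1 (0.04), Camk2d (0.12) and Ank2 (0.29). Of the 3 higher genes, Casq1 and Kcnh2 turned to −0.55 and −0.31 there with the stricter cell filter, while Kcne1 was at 0.97. The subsets share their library, so the 4 values of a gene are not independent. Camk2d, a calcium-dependent kinase of the release channel and phospholamban, had its lowest ratio in outflow-tract-like cells, at 194 and 126 CPM (−0.60).

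The shallow cluster lay in part the other way. Of 18 genes compared there, 4 had a log2 ratio below 0, and the median was 0.38. Cacna2d1 (−0.40) and Hrc (−0.37), lower in all 4 subsets, were lower here too, as was Trdn (−0.40). Cacnb2 and Asph were both at 0.05. Past 2-fold, 1 gene of this cluster was higher in H2CKO (background 2.25%) and none lower (1.83%). Ryr2 was at 39.2 CPM in its 693 control cells and 120.5 CPM in its 276 H2CKO cells, a ratio of 3.07 (2.36 to 4.02), and Slc8a1 at 178 and 327 CPM, Camk2d at 46.7 and 93.1 CPM and Atp2a2 at 238 and 398 CPM also had the sign opposite to that in the 4 subsets. Kcne1, at 85.9 and 163 CPM, kept its sign, and Pln was at 990.2 and 1110 CPM. Mitochondrial UMIs made up a median of 0.492% of these cells in the control library and 5.76% in H2CKO. Markers of other cells also differed in this cluster, with erythroid markers summing to 17845 and 9899 CPM, mesenchymal markers to 106 and 33.3 CPM and smooth muscle markers to 4515 and 2656 CPM. The part of these differences in the values was not tested.

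**Figure D4:**
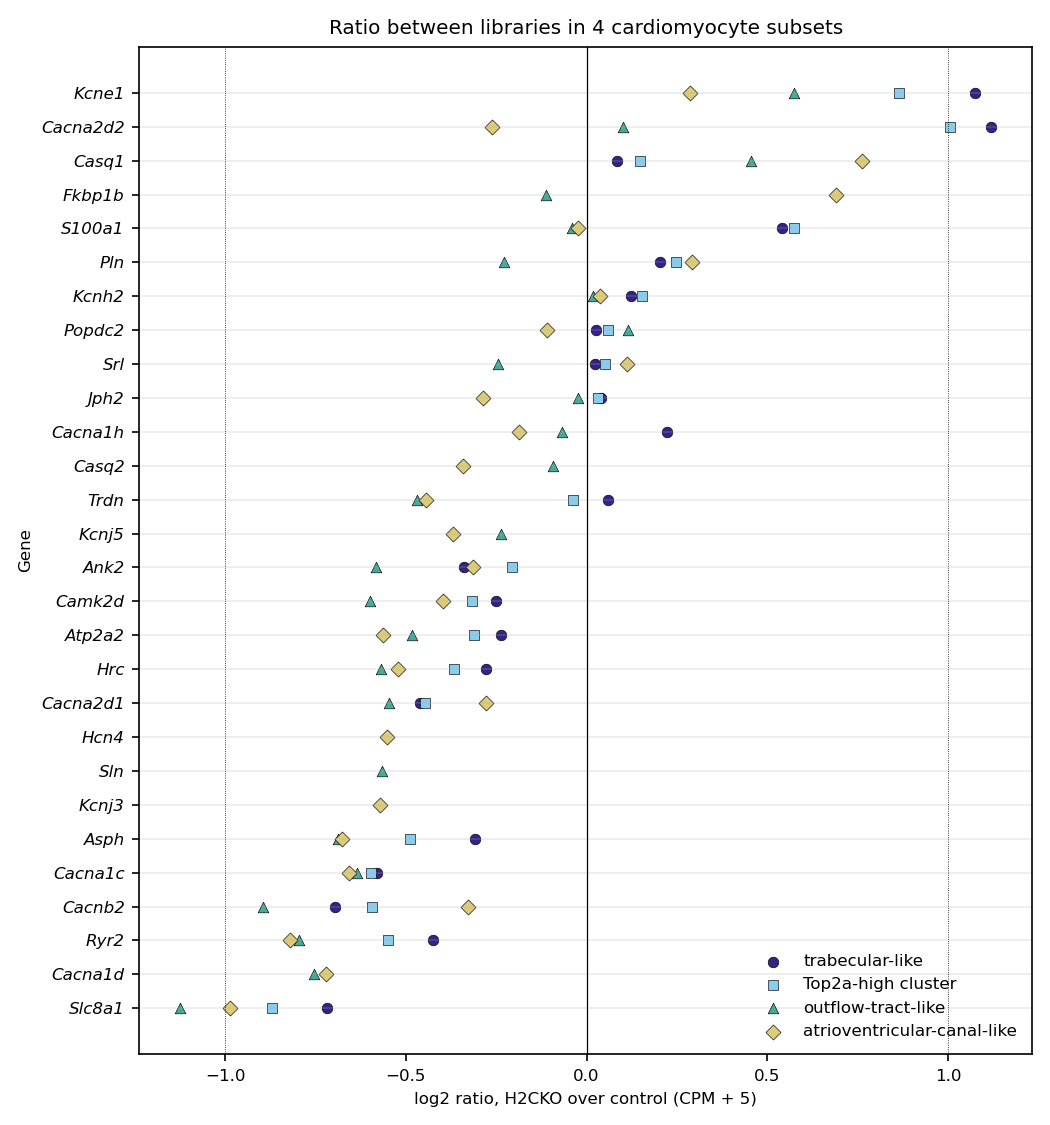
Log2 ratio of H2CKO over control, from CPM plus 5 (horizontal axis), for each gene that reached the level for comparison (vertical axis, ordered by its median) in 4 cardiomyocyte subsets (symbols), with dotted lines at 2-fold. Slc8a1 lies between −0.72 and −1.12 in all 4 subsets, Kcne1 between 0.29 and 1.07, and Cacna2d2 runs from −0.26 in atrioventricular-canal-like to 1.12 in trabecular-like cells.

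Other genes of calcium and ion transport, 75 in number, were counted beside the 36. Between genotypes in cardiomyocyte-like cells 26 were compared and none was past 2-fold, with a median log2 ratio of −0.18. In the canal-like cells 7 of 26 were higher than in the Myl2-high clusters in both libraries, where 4.98% of all genes were, among them the ryanodine receptor Ryr3, the plasma membrane calcium pumps Atp2b1 and Atp2b4, the sodium pump subunit Atp1b1, the phosphodiesterase Pde3a and the ankyrin Ank3. Ryr3 was at 56.9 and 38.3 CPM against 2.28 and 4.43 CPM (log2 3.09 and 2.20), in the same cells in which Ryr2 was at 224 and 125 CPM. In outflow-tract-like cells 3 of 26 were higher (2.27% of all genes), all of them also among the 7, with Atp2b4 and Atp1b1 in their number. Abcc9, a subunit of ATP-sensitive potassium channels, was lower in both subsets, at 16.9 and 13.9 CPM in canal-like and 12.2 and 6.27 CPM in outflow-tract-like cells against 45.7 and 37.8 CPM. In control atrial-like cells Ryr3 was at 28.0 against 2.28 CPM (2.18) and the mitochondrial uniporter Mcu at 24.5 against 9.28 CPM (1.05), the only 2 of 32 past 2-fold (2.63% of all genes higher and 2.07% lower).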

How the data were processed

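The authors deposited 1 matrix of raw UMI counts per library (10x Genomics 3′ chemistry, per the labels), with Ensembl identifiers as rows, and 2 embedding coordinates for part of the cells, per the file headers, used only to mark cells for 1 alternative. The submitters' processing notes name Cell Ranger 5.0.1, Seurat 4 and GRCm38.p6, without saying what each was used for. Whether intronic reads were counted is not given in the sources used here.

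The cell filter asked for 500 genes or more and a mitochondrial share of 10% or less. Scrublet (scanpy 1.11.5) marked 1048 control cells and 0 H2CKO cells; since under 0.5% were marked in H2CKO, its 607 cells with the top 5% of scores were left out, so removal differed between libraries (10.6% and 5.00%). Cells were clustered (2000 variable genes, 30 components, 15 neighbours per library, leidenalg 0.10.2, resolutions 1 and 0.5) without the 36 genes and named from marker lists, 13 genes for cardiomyocytes. UMIs were summed per class or subset and library. Ratios are log2 of CPM plus 5, compared at 20 CPM and 20 UMIs in the higher group; between subsets this had to hold in both libraries. No test was possible with 1 library per genotype. The calculation was tested on simulated data. The values of 1 gene and 1 cluster are not reported here. In the text, genes past 2-fold, or the largest up to 6, are named, and Ryr2, Atp2a2, Pln, Sln, Slc8a1, Cacna1c and Hcn4 throughout.

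The genes and lists were chosen with earlier results of these data known. The Myl2-high reference, the treatment of the Crabp1-high cluster and the restriction of the atrial comparison, planned for both libraries, to the control were decided after the clusters were seen. Spans and exons came from GENCODE vM21 (GRCm38) and promoter windows from RefSeq. No measured gene overlapped a member on its own strand; 6 members were overlapped on the opposite strand, among them Pln and Slc8a1. Alternatives changed the cell filter, doublets, depth, pseudocount, scaling, gene span, class assignment, low-value filter and clustering. Versions: Python 3.11.15, numpy 2.4.6, scipy 1.17.1, scikit-learn 1.9.0.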

Additional observations from a re-analysis of the deposited data

Results flagged for a closer look

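Cacna2d2 was higher in H2CKO than in the control in trabecular-like cells (21.0 and 51.6 CPM) and the Top2a-high cluster (16.1 and 37.4 CPM), past 2-fold in both, and lower in atrioventricular-canal-like cells (433 and 361 CPM), with a counting interval of the ratio below 1 (0.755 to 0.918). The median gene itself lay at log2 ratios of −0.14 in the trabecular-like cells, −0.16 in the Top2a-high cluster and −0.15 in the canal-like cells. The log2 ratios of Cacna2d2 differed by 1.38 between the trabecular-like and the canal-like cells and by 1.27 between the Top2a-high cluster and the canal-like cells. These differences are between single libraries and were not tested.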

How the results depend on the processing

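No paired analysis was possible because each genotype has 1 library. With a filter of 1500 genes or more and a mitochondrial share of 5% or less, 1 gene, Slc8a1, was lower past 2-fold in cardiomyocyte-like cells instead of 0; under the other alternatives the count stayed at 0 in both directions. Within subsets, thinning to 5000 UMIs gave 2 lower genes in the outflow-tract-like and 2 in the atrioventricular-canal-like cells (1 and 0 as reported). Centring on the median gene gave 0 lower in the outflow-tract-like and 2 higher in the Top2a-high cells. The canal-like contrast had 3 higher genes at the halved resolution and 3 after thinning, and the atrial-like contrast 3 after thinning. Without doublet removal only 2 genes, not 17, stayed 2-fold above every other class; the epicardial-like class then held 1139 and 486 cells instead of 685 and 222. At the halved resolution no atrial-like cluster was separate, and the canal-like cluster held 188 control cells instead of 90, with Nr2f1 and Nr2f2 among its leading genes. With the stricter cell filter the outflow-tract-like and canal-like subsets had under 50 H2CKO cells. The atrial-like contrast has no value in the first case, and the outflow-tract-like and canal-like contrasts have none in the second. No called value changed sign. Apart from the cases named, the cause was not tested. Depth limits the 15 low genes: 3 UMIs are 0.0502 CPM over the control cardiomyocyte-like cells but 1.47 CPM over its 108 atrial-like cells.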
